A study of Mus musculus with 96 samples.

Results

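Ucp2 and Ucp3 encode uncoupling proteins, carriers of the inner mitochondrial membrane, and their RNA was followed in liver, skeletal muscle and cerebral cortex of mice that ate freely or were kept on intermittent fasting. Both genes were taken by name from the table of gene counts, which makes 2 of its 56748 genes. The authors fed mice ad libitum (AL) or by intermittent fasting (IF). In the males, of strain C57BL/6, IF was 16 h without food each day for 4 months from 6 weeks of age, and the tissues were taken at the end of a fast. Poly-A RNA of each tissue was sequenced from directional libraries. Male mice carry the numbers 1-16 (AL 1 to 8, IF 9 to 16) and female mice the numbers 25-40 (AL 25 to 32, IF 33 to 40), with 8 mice per diet in each cohort.

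The strain, fasting hours, duration and age of the female cohort are not given in the sources used here, so sex and cohort cannot be told apart. The labels name no genotype, and AL mice are the controls of each cohort. The table holds 96 libraries, 48 from males and 48 from females, with 26097314 to 49838004 counts each (median 36164022). The unit of level is CPM, a count divided by the total of its library and brought to the usual CPM scale.

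Uncoupling proteins belong to the mitochondrial carrier family, whose founding uncoupler, Ucp1, lets protons return into the matrix of brown fat cells and so releases heat. Ucp3 is made mainly in skeletal muscle and brown fat, and its transcript is known to rise with fasting and with circulating fatty acids. Ucp2 is made in many tissues and is abundant in macrophages and other immune cells, and its transport activity has been linked to metabolites and to the control of reactive oxygen species.

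One library did not match its label. The cortex library of AL mouse 1, labelled male, held 213 CPM of Xist, the RNA of the inactive X chromosome, and 0 counts of the Y-linked genes Ddx3y, Kdm5d, Eif2s3y and Uty. In the other 47 libraries labelled male Xist reached at most 0.612 CPM and Ddx3y lay between 25.1 and 70.8 CPM. The 48 libraries labelled female had 36.8 to 1627 CPM of Xist and at most 0.0497 CPM of Ddx3y. That cortex library was left out, which leaves 95 libraries and 7 AL mice in cortex of mice 1-16. The diet changes of Ucp2 and Ucp3 in that cortex, and the number of genes called there, are given with and without it. The other cortex tests were run without it only.

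The labelled tissues carried their own markers. The summed level of 7 hepatocyte markers had a median of 59824 CPM in liver of AL mice 1-16, against 4.76 CPM in muscle and 29.6 CPM in cortex. The summed level of 8 skeletal muscle fibre markers had a median of 123921 CPM in muscle and 2.03 CPM in liver of the same mice, and 7 neuron and glia markers summed to a median of 9494 CPM in their cortex. Single cortex libraries reached 4270.2 CPM for the hepatocyte list, of which Ttr, also made in choroid plexus, was the most abundant gene.

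The 2 genes lie next to each other on mouse chromosome 7, in the same direction. In the GRCm39 coordinates of the count table, Ucp3 (ENSMUSG00000032942) spans 100122197 to 100135639 on the plus strand and Ucp2 (ENSMUSG00000033685) spans 100142544 to 100151227 on the plus strand. The stretch between the end of Ucp3 and the start of Ucp2 is 6904 bases. Their exons sum to 3135 bases for Ucp3 and 6989 bases for Ucp2, the lengths used below for levels per kilobase.

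Ucp3, the muscle form, was counted in every muscle and cortex library and in few livers. Its level in muscle of mice 1-16 was 48.1 CPM at the lowest, 64.8 at the median and 95.9 at the highest in 8 AL mice, and 208, 317 and 453 CPM in 8 IF mice. Every IF mouse of that cohort stood above every AL mouse, and the highest value, in IF mouse 16, was also the highest of all 95 libraries. The AL mice of the other cohort, mice 25-40, had in muscle 31.5, 96.3 and 155 CPM and the IF mice 59.0, 76.1 and 144 CPM. There the AL mice spread over a wider range that enclosed all IF mice, with AL mice 26 and 27 lowest and AL mouse 29 highest.

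In cortex Ucp3 was low but present in every library, with counts from 69 to 168. AL mice 1-16 had 2.57, 2.995 and 3.53 CPM (lowest, median, highest; n = 7) and IF mice had 2.09, 2.74 and 4.26 CPM. AL mice 25-40 had 3.36, 3.71 and 4.90 CPM and their IF mice 2.99, 3.61 and 4.601 CPM. The diets overlapped in both cohorts, and no cortex library reached the lowest muscle library of either cohort.

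In liver Ucp3 was at or near 0. The median was 0 CPM in all 4 groups of 8, with no count at all in 6 AL and 6 IF livers of mice 1-16 and in 6 AL and 5 IF livers of mice 25-40. The highest liver value was 0.9002 CPM (31 counts) in IF mouse 15, and every other liver had at most 7 counts. Since the median of both diets was 0, no fold is given for liver.

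Ucp2, the widely made form, was counted in every library. In liver of mice 1-16 it had 19.5, 27.3 and 37.4 CPM under AL and 25.7, 30.5 and 72.0 CPM under IF. In liver of mice 25-40 it had 33.7, 57.0 and 139 CPM under AL and 42.5, 60.2 and 121 CPM under IF. In each cohort most livers of both diets fell in a shared range, and IF mouse 16, AL mouse 28 and IF mouse 40 stood far above the rest of their groups.

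Ucp2 in muscle of mice 1-16 had 11.4, 14.4 and 18.8 CPM under AL and 16.2, 27.1 and 40.1 CPM under IF. Of the 8 IF mice 7 were above every AL mouse, and only IF mouse 9 fell among the AL values. Ucp2 in muscle of mice 25-40 had 9.35, 19.4 and 40.01 CPM under AL and 11.8, 17.9 and 33.9 CPM under IF. Both diets of that cohort covered nearly the same range, with high and low mice in each.

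In cortex of mice 1-16 Ucp2 had 20.1, 24.7 and 38.1 CPM in 7 AL mice and 25.8, 41.8 and 61.0 CPM in 8 IF mice. Of the IF mice 5 were above every AL mouse, while IF mice 9, 10 and 13 fell within the AL range. In cortex of mice 25-40 it had 26.3, 31.8 and 36.5 CPM under AL and 29.1, 34.9 and 64.2 CPM under IF. There 3 of 8 IF mice were above every AL mouse, and IF mouse 36 was the highest. The omitted cortex library of AL mouse 1 had 30.96 CPM of Ucp2 and 3.88 CPM of Ucp3, inside the AL range for Ucp2 and above it for Ucp3.

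**Figure D1:**
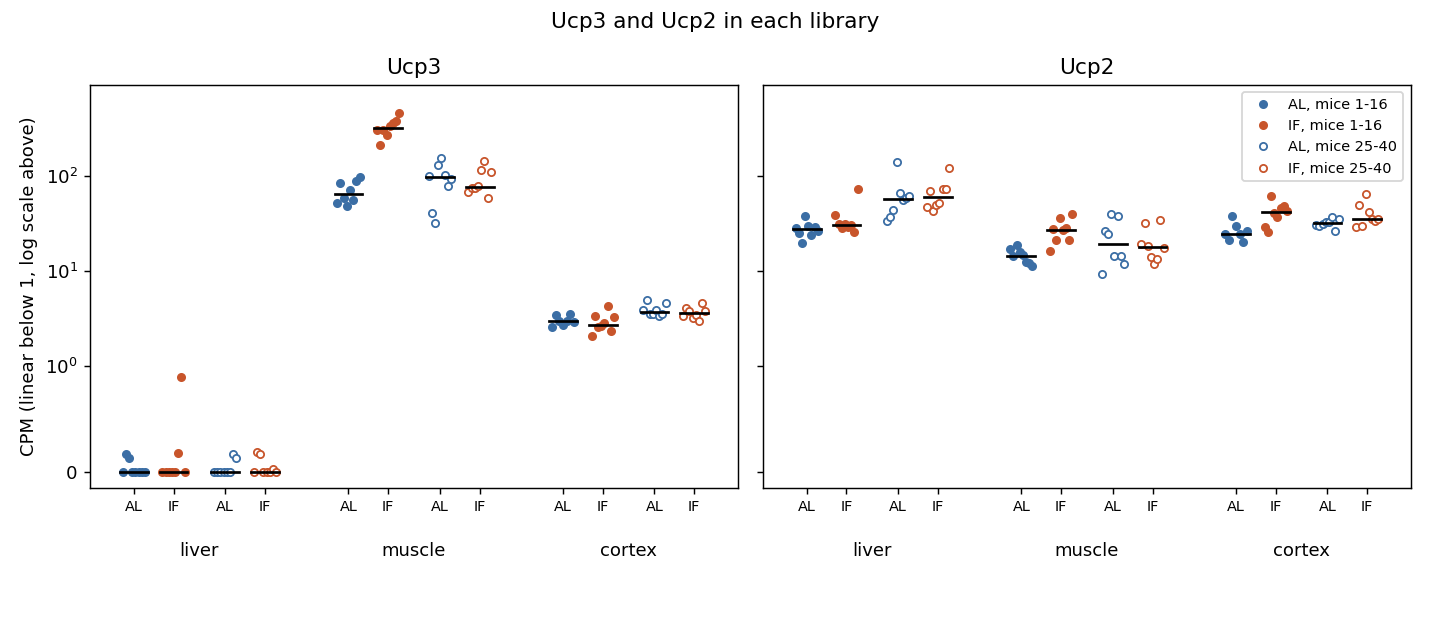
Level of Ucp2 and Ucp3 (CPM, linear below 1 and logarithmic above) in every library, by tissue, cohort and diet. Ucp3 in muscle of mice 1-16 rose from a median of 64.8 CPM in AL to 317 CPM in IF without overlap, while in liver its median was 0 CPM in all 4 groups.

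Levels of different genes can be compared only per kilobase of gene length. On that scale muscle held far more Ucp3 than Ucp2. The median of Ucp3 was 20.7 CPM per kilobase in AL mice 1-16, against 2.07 for Ucp2, a ratio of 10.002. Under IF the ratio was 26.1 in the same cohort, and in mice 25-40 it was 11.1 under AL and 9.49 under IF. Ucp3 exceeded Ucp2 per kilobase in all 8 mice of each of these 4 groups. In cortex the order was the other way round, with Ucp2 above Ucp3 by a ratio of medians of 3.70 in AL and 6.86 in IF mice 1-16, and of 3.84 in AL and 4.33 in IF mice 25-40. The length of Ucp2 joins the exons of all its transcripts, so that its level per kilobase may be understated.

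The order of tissues was then asked for each gene within AL mice, with exact permutation tests on log2 CPM. These tests did not pair libraries by mouse, and p-values were adjusted by Benjamini-Hochberg over the 12 pairs of tissues. For Ucp3 the order was muscle, cortex, liver in both cohorts. Muscle exceeded cortex by 4.46 on the log2 scale in mice 1-16 and by 4.37 in mice 25-40 (exact permutation p = 0.0001554 for each, the smallest these permutations can give, adjusted p = 0.000233). Paired by mouse number, the adjusted exact permutation p was 0.0188 in mice 1-16 and 0.0134 in mice 25-40. In each of the 4 liver groups 6 of 8 livers had at most 3 counts, a floor that stands in for their missing level. Against those livers the lowest AL muscle was at least 418-fold higher in mice 1-16 and at least 313-fold higher in mice 25-40, and the lowest AL cortex at least 22.3-fold and 33.3-fold higher. Under IF these bounds were 2184-fold and 525-fold for muscle and 21.9-fold and 26.6-fold for cortex.

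For Ucp2 the order depended on the scale. In plain CPM AL livers of mice 1-16 exceeded muscle by 0.91 on the log2 scale (adjusted exact permutation p = 0.000233) and were not shown to differ from cortex (0.07, adjusted exact permutation p = 0.662). Muscle lay below cortex in that cohort by a log2 difference of -0.84 (adjusted exact permutation p = 0.000233). In AL mice 25-40 the order was liver, cortex, muscle, with liver above cortex by 0.82 (adjusted exact permutation p = 0.000829), liver above muscle by 1.51 (0.00131) and muscle against cortex at -0.69 (0.0395). Paired by mouse, muscle lay below cortex in 6 of those 8 mice, and the difference no longer passed (adjusted exact permutation p = 0.0597). When libraries of all tissues were scaled together by TMM, a normalisation that corrects for a few very abundant transcripts, muscle no longer lay below cortex (0.16 and 0.18 in the 2 cohorts). On that scale liver exceeded cortex in mice 1-16 by 0.86 (adjusted exact permutation p = 0.000829). Only the place of liver above muscle therefore held for Ucp2 on both scales in both cohorts.

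The comparison of diets asks whether IF changed these transcripts within a tissue. It was fitted with edgeR across all genes that passed a filter on low counts, and p-values were adjusted over all of them. Values are log2 fold changes of IF over AL, given ± SE. In muscle of mice 1-16 Ucp3 rose by 2.16 ± 0.175 (edgeR adjusted p = 6.57e-07; n = 8 and 8), the larger of the 2 changes. Ucp2 rose in the same libraries by 0.82 ± 0.160 (edgeR adjusted p = 0.00145). Both genes were thus called in a comparison in which 23.0% of 15025 genes were called at an adjusted p under 0.05. Groups without any overlap, as seen for Ucp3, occurred for 4.17% of those genes. The median log2 fold change of all genes tested there was 0.01.

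Neither gene passed in muscle of mice 25-40. Ucp3 changed by 0.07 ± 0.304 (edgeR adjusted p = 0.961) and Ucp2 by -0.08 ± 0.313 (edgeR adjusted p = 0.948). In that comparison edgeR called 1 of 15308 genes (0.00653%), so the members' lack of a call matches nearly every other gene. The SE was larger than in mice 1-16 for both genes, and the values do not show that the diets were equal.

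The difference between the cohorts' responses was tested directly as an interaction, the IF effect in mice 25-40 minus that in mice 1-16. For Ucp3 in muscle it was -2.07 ± 0.356 (edgeR adjusted p = 0.000248), in a fit in which 14.2% of 16346 genes were called. For Ucp2 in muscle it was -0.88 ± 0.356 (edgeR adjusted p = 0.0970), which misses the threshold. So a difference between cohorts in the response to diet was shown for Ucp3 and not for Ucp2 in muscle.

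In cortex of mice 1-16 Ucp2 rose by 0.66 ± 0.179 (edgeR adjusted p = 0.0377; n = 7 and 8), where 7.21% of 18462 genes were called. With the mismatched AL mouse 1 included the change was 0.62 ± 0.170 and no longer passed (edgeR adjusted p = 0.0669). In mice 25-40 Ucp2 in cortex changed by 0.31 ± 0.145 (edgeR adjusted p = 0.434), with 2 of 18403 genes called (0.0109%). The interaction in cortex was -0.34 ± 0.240 (edgeR adjusted p = 0.540; 2.03% of genes called), so the cohorts were not shown to differ. The call for Ucp2 in cortex of mice 1-16 was also lost in 11 of 15 fits that left out 1 library, and with no filter, 1 fit over 3 tissues or a replicate block (edgeR adjusted p 0.0863 to 0.112). The number of genes called in that comparison, 1332 in the main fit, ran from 119 to 4400 under other choices.

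Ucp3 in cortex showed no change past the threshold in either cohort. It changed by -0.03 ± 0.145 in mice 1-16 (edgeR adjusted p = 0.936), by -0.09 ± 0.142 with AL mouse 1 included (edgeR adjusted p = 0.787), and by -0.10 ± 0.111 in mice 25-40 (edgeR adjusted p = 0.745). Its interaction was -0.06 ± 0.174 (edgeR adjusted p = 0.907). The IF value of mice 1-16 was spread more widely than the AL value, with IF mouse 9 lowest and IF mouse 14 highest.

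In liver Ucp2 did not pass in either cohort. It changed by 0.29 ± 0.179 in mice 1-16 (edgeR adjusted p = 0.203), although 44.6% of 16204 genes were called there. It changed by 0.14 ± 0.272 in mice 25-40 (edgeR adjusted p = 0.956), where edgeR called 0 of 15938 genes, with 919 at an unadjusted p under 0.05 and 8 called by DESeq2. The interaction was -0.11 ± 0.352 (edgeR adjusted p = 0.863; 23.7% of genes called). Single libraries carried these values, since without IF mouse 16 the change in mice 1-16 was 0.06 and without IF mouse 40 that in mice 25-40 was -0.0635. Ucp3 in liver did not pass the filter and was not tested.

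**Figure D2:**
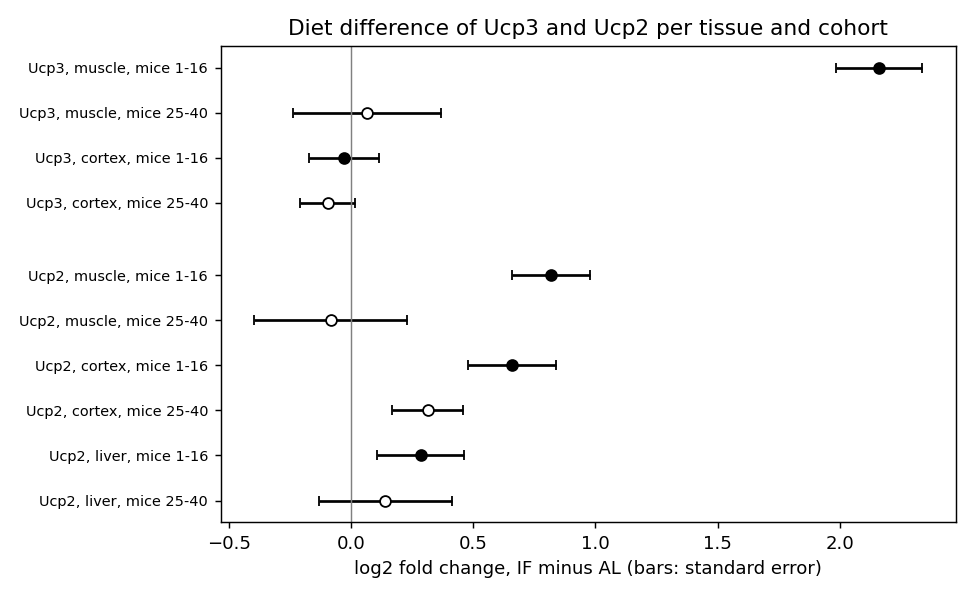
Log2 fold change of IF over AL for Ucp2 and Ucp3 (bars are SE), by tissue and cohort, from edgeR. Only muscle of mice 1-16 shows a large change of Ucp3 (2.16), beside 0.82 for Ucp2 there and 0.66 for Ucp2 in cortex.

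Levels under AL also differed between the cohorts for some pairs of gene and tissue. Ucp2 in liver was higher in AL mice 25-40 than in AL mice 1-16 by 1.01 ± 0.251 (edgeR adjusted p = 0.00379), in a fit that called 20% of genes. Ucp3 in cortex was higher in AL mice 25-40 by 0.38 ± 0.126 (edgeR adjusted p = 0.0411; 12.6% of genes called), a call that was lost without a filter (0.37, edgeR adjusted p = 0.115). In muscle neither passed, with 0.25 ± 0.250 for Ucp3 (edgeR adjusted p = 0.447) and 0.45 ± 0.253 for Ucp2 (edgeR adjusted p = 0.160), although 38.4% of genes were called. Ucp2 in cortex differed by 0.28 ± 0.174 (edgeR adjusted p = 0.313). Sex, cohort and everything else that went with them cannot be told apart in these differences.

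With the same mouse number in 3 tissues taken as the same animal, the diet response was also compared between tissues within mice. The difference of log2 levels between 2 tissues was taken for each mouse and compared between diets by exact permutation, with p adjusted over 12 comparisons. Ucp3 responded more in muscle than in cortex of mice 1-16, by 2.17 on the log2 scale (exact permutation p = 0.0001554, the smallest possible, adjusted p = 0.00186; n = 7 and 8). In mice 25-40 the same comparison gave 0.25 (adjusted exact permutation p = 0.780). Ucp2 in liver against muscle of mice 1-16 gave -0.56 (exact permutation p = 0.0255, adjusted 0.102). The 4 comparisons of Ucp3 with liver are not read here, since most livers had no count of it. The other 5 comparisons of Ucp2 had adjusted exact permutation p of at least 0.466.

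No group showed a positive correlation of Ucp2 with Ucp3 past the threshold. Across the 8 groups of muscle and cortex, Pearson correlations of the log2 levels ran from -0.72 to 0.17, and none passed after adjustment over the 8 groups (exact permutation). The strongest was in muscle of IF mice 25-40, with r = -0.72 (exact permutation p = 0.0476, adjusted 0.274) and a rank correlation of -0.93, which passed (exact permutation p = 0.00223, adjusted 0.0179). Without the 2 mice whose Ucp2 lay farthest from the group median r was -0.66 there (exact permutation p = 0.124; n = 6). The next was muscle of AL mice 1-16, with r = -0.69 (adjusted exact permutation p = 0.274), where the AL mouse with the highest Ucp3, mouse 8, had the lowest Ucp2. Leaving out 2 mice in the same way moved some other groups more. Muscle of AL mice 25-40 went from -0.16 to -0.81 (exact permutation p = 0.0583) and muscle of IF mice 1-16 from 0.17 to -0.40 (0.429). Cortex of IF mice 1-16 went from 0.01 to 0.52 (0.299). Over all 32 muscle libraries, which pool the 4 groups, r was 0.25.

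The genes most like each member were named by correlation alone, without a test. Over 32 muscle libraries the 5 genes closest to Ucp3, of 12484 with a mean of at least 1 CPM, were Pdk4 (r = 0.903), Depp1 (0.883), Fbxo32 (0.863), Tsc22d3 (0.861) and Rnf144b (0.846). After the mean of each group was taken off, Pdk4 (0.801) and Rnf144b (0.817) kept high values and Depp1 (0.436) and Tsc22d3 (0.375) did not. Fbxo32 (0.670) lay between them. The closest to Ucp2 in muscle were Btg1 (0.813), Rpl3-ps1 (0.791), Faap20 (0.779), Crybg1 (0.778) and Rpl3 (0.770). The 2 members thus shared none of their 5 closest genes in muscle.

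In liver the genes closest to Ucp2 over 32 libraries were Lgals3 (r = 0.860), Sdc3 (0.857), Axl (0.853), C1qc (0.850) and Spi1 (0.843), each at least 0.802 within groups. Over the means of 12 groups, which share only 3 tissues, Ucp3 went with Eya4, Pde7a, Ddit4l, Metap2 and Zfand5 (r from 0.993 to 0.996), and 1106 of 15852 genes had r over 0.9. Ucp2 went with Gm28192, Noct, Snhg1, Chp1 and Pa2g4 (r from 0.909 to 0.933) and had 12 such genes. Between the 2 members r over those means was -0.73, as the tissue with most Ucp3 had the least Ucp2 in CPM.

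Markers of macrophages, cells that carry Ucp2, were set beside its level in liver. Of 12 macrophage markers 3 were called higher under IF in liver of mice 1-16 and none lower, beside 44.6% of all genes called in either direction, with a median log2 fold change of 0.42 beside 0.06 over all genes tested. Their summed level was 172, 214 and 307 CPM (lowest, median, highest) under AL and 223, 281 and 802 CPM under IF in mice 1-16, and 322, 387 and 1482 CPM under AL and 216, 419 and 680 CPM under IF in mice 25-40. Clec4f was the most abundant of them. IF mouse 16 and AL mouse 28, the livers with the highest Ucp2 of their groups, also had the highest sums of theirs, 802 and 1482 CPM. IF mouse 40, with 121 CPM of Ucp2, had a macrophage sum of 450.4 CPM, inside the range of its group. In bulk RNA fewer cells of a type and less RNA per cell cannot be told apart, and the part of these cells in the level of Ucp2 was not tested.

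Erythrocyte markers also differed in liver of mice 1-16, with 3 of 5 called higher under IF and summed levels of 362, 569 and 956 CPM under AL against 667, 2070.4 and 6879 CPM under IF. Hba-a1 was the most abundant of these. Of 6 endothelial markers 3 were called higher there, and of 6 lymphocyte markers 1, beside 44.6% of all genes called. Their part in the level of Ucp2 was not tested.

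Cell markers in cortex were set beside Ucp2 in the same way. Of 6 microglia markers and 8 macrophage markers tested there in mice 1-16, 0 were called in either direction, beside 7.21% of all genes. Ptprc, of the 2 lymphocyte markers tested, was called lower (-0.74), and Mbp of 7 neuron and glia markers (0.59) and Robo4 of 6 endothelial markers (0.54) were called higher, 3 genes named after their values were seen. The microglia sum was 149.9, 156 and 169 CPM under AL and 138, 147 and 159 CPM under IF, with Cx3cr1 most abundant. The part of these cells in the level of Ucp2 was not tested.

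Ttr was singled out after its values were seen. The cortex with most Ucp2 in 3 of the 4 groups was also the one with most Ttr, AL mouse 4 (3102 CPM of Ttr), IF mouse 11 (3366 CPM) and IF mouse 36 (4269 CPM). In AL mice 25-40, where Ttr reached at most 118 CPM, this was not so. Without AL mouse 4 the change of Ucp2 in cortex of mice 1-16 was 0.77 (edgeR adjusted p = 0.0175), and without IF mouse 11 it was 0.55 (edgeR adjusted p = 0.0569). Without IF mouse 36 the change in mice 25-40 was 0.18 (edgeR adjusted p = 0.440). The part of choroid plexus in the level of Ucp2 was not tested.

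In muscle of mice 1-16 markers of fat cells moved with both members. Of 7 white adipocyte markers 6 were called higher under IF (median log2 change 2.20), beside 23.0% of all genes called, with a summed level of 166, 320 and 749 CPM under AL against 418, 1558 and 3839 CPM under IF. Fabp4 was the most abundant, and none of the 7 was at 0. Of 4 brown adipocyte markers tested 1 was called higher, Cidea (4.52 ± 0.977; edgeR adjusted p = 0.00422), and 2 lower, with a summed level of 879, 1212 and 1477 CPM under AL and 706, 1047 and 1324 CPM under IF. Most of that sum was Cox8b, which muscle fibres also make.

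Other marker lists were read in the same muscles in which Ucp3 and Ucp2 rose, each beside 23.0% of all genes called. Of 6 endothelial markers 1 was called higher and 1 lower, of 4 lymphocyte markers tested 1 lower, and of 8 muscle fibre markers 1 lower. Of 4 sex-linked genes tested 4 were called higher (median log2 change 0.36). Of 9 macrophage markers tested 0 were called higher and 2 lower (Csf1r and Lyz2), beside 23.0% of all genes called, and their summed level was 70.4, 118 and 160 CPM under AL and 56.2, 83.7 and 134 CPM under IF. Of 2 hepatocyte markers tested Cyp2e1 was called higher (4.02), with a sum of that list at 1.60, 4.76 and 11.9 CPM under AL and 35.1, 85.6 and 210 CPM under IF. Cyp2e1 was the most abundant of the 7 listed (mean 50.4 CPM), and Apob, Ttr, Serpina1c and Tat each had a mean under 0.1 CPM. Csf1r, Lyz2 and Cyp2e1 were named after their values were seen, and the part of such cells in the levels of Ucp2 and Ucp3 was not tested.

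Ucp1, the uncoupler of brown fat and the defining marker of that list, was found in part of the muscle libraries only. Under IF mice 9 to 13 had 10.1, 12.6, 3.11, 51.8 and 2.50 CPM of Ucp1 and IF mice 14 to 16 at most 0.118 CPM. AL mice 1-16 had at most 0.331 CPM, and in mice 25-40 only AL mouse 29 stood out, with 7.30 CPM. The muscle with most Ucp3, IF mouse 16, was among those with next to no Ucp1.

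When all muscle libraries with at least 1 CPM of Ucp1 were left out, 3 IF mice remained in mice 1-16. The change of Ucp3 was then 2.43 ± 0.191 (edgeR adjusted p = 1.37e-05) and that of Ucp2 0.94 ± 0.190 (edgeR adjusted p = 0.00498). This choice was made after the data were seen, and the 3 mice were those with the highest Ucp3 of their group, so that it does not settle what brown fat adds to the levels. The summed level of white adipocyte markers in those 3 mice, 917 to 1869.9 CPM, was still above all AL mice, and the part of white fat in the 2 changes was not tested.

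**Figure D3:**
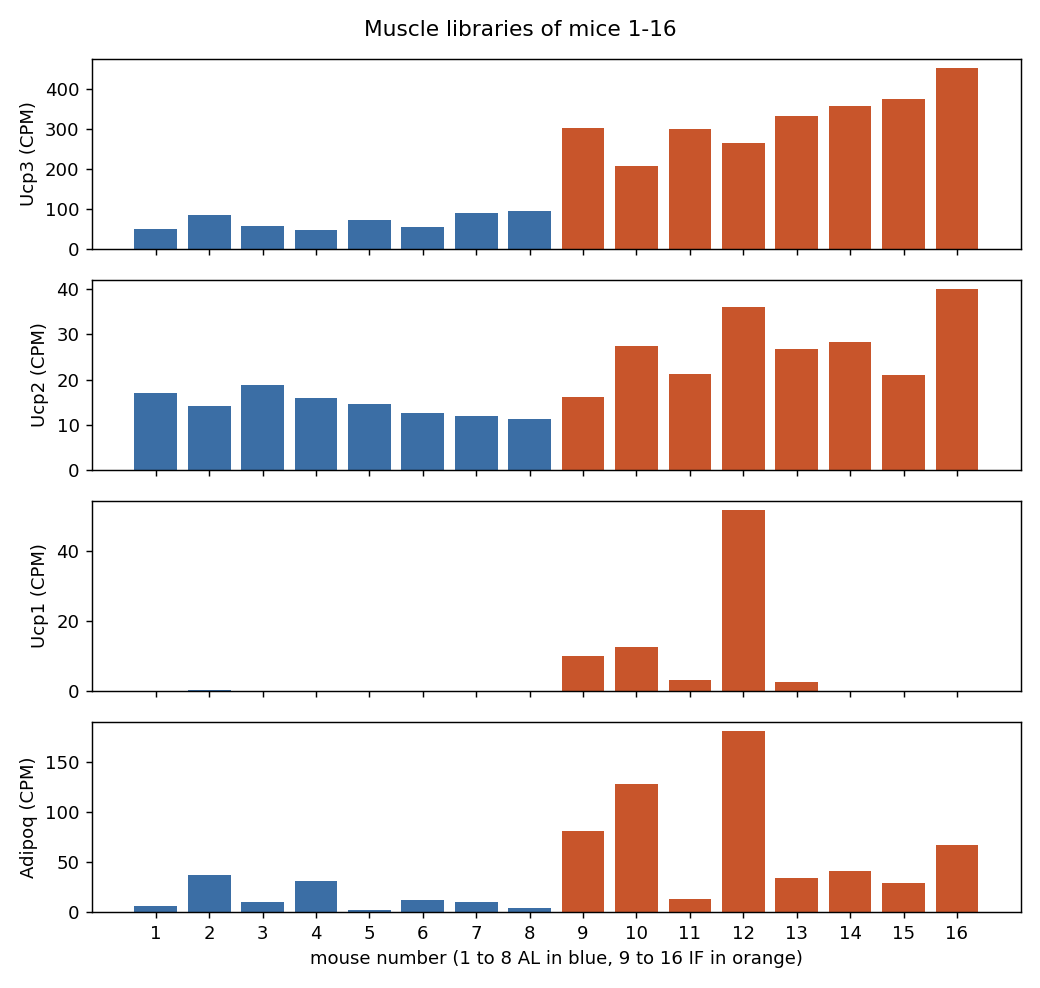
Ucp3, Ucp2, Ucp1 and Adipoq (CPM) in each muscle library of mice 1-16, with 8 AL mice in blue and 8 IF mice in orange. The 3 IF mice with at most 0.118 CPM of Ucp1 had 358 to 453 CPM of Ucp3, and the 5 IF mice with more Ucp1 had 208 to 332 CPM.

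The other carriers of the family give a frame for the 2 members. Of the 5 genes of the uncoupling protein family that could be tested in muscle of mice 1-16, 4 were called higher, beside 23.0% of all genes called: the 2 members Ucp3 and Ucp2, Slc25a27 (0.35 ± 0.0915; edgeR adjusted p = 0.00856) and Slc25a30 (0.69 ± 0.200; edgeR adjusted p = 0.0206). Slc25a14 had 0.35 ± 0.147 (edgeR adjusted p = 0.0927). The summed level of the 6 family genes had a median of 101 CPM under AL and 379.7 CPM under IF, with Ucp3 most abundant in CPM. In cortex of mice 1-16 Ucp2 was the only one of 5 called (7.21% of all genes), and in liver 0 of 4 were called (44.6% of all genes). In mice 25-40 none was called in any tissue, where edgeR called 0 genes in liver, 1 in muscle and 2 in cortex in all.

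The ADP/ATP carriers, close relatives that exchange nucleotides across the same membrane, moved little in muscle. Slc25a4, at a median of 4778 CPM under AL and 4575 CPM under IF, changed by -0.18 ± 0.0630 (edgeR adjusted p = 0.0422), and Slc25a5 by 0.04 ± 0.144 (edgeR adjusted p = 0.890). In liver of mice 1-16, where 44.6% of all genes were called, both were higher under IF, Slc25a4 by 0.78 and Slc25a5 by 0.54 (edgeR adjusted p = 0.000567 and 0.000439), while Ucp2 there was not called. The rise of Ucp3 and Ucp2 in muscle was therefore not seen in these 2 carriers.

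Receptors and coregulators that act on Ucp3 and related genes went both ways in muscle of mice 1-16. Of 12 tested, 3 were called higher and 5 lower, beside 23.0% of all genes, with a median of -0.27 beside 0.01 over all genes. Ppargc1a, a coactivator of mitochondrial genes, rose by 0.70 ± 0.123 (edgeR adjusted p = 0.000422), from a median of 15.4 to 30.1 CPM. Ppard, a fatty acid receptor of muscle, changed by -0.40 ± 0.0735 (edgeR adjusted p = 0.000504), Thra by -0.70, Rxra by -0.34 and Esrra by -0.51. Ppara was low in muscle, with medians of 0.669 and 0.503 CPM, and changed by -0.27 ± 0.406 (edgeR adjusted p = 0.685). Pparg, a receptor of fat cells, rose by 1.34 ± 0.310 (edgeR adjusted p = 0.00537) and Foxo1 by 0.87 ± 0.215 (edgeR adjusted p = 0.00806), and Myod1 was lower (-0.60). Pparg and Myod1 were named after their values were seen.

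In liver of mice 1-16, where Ucp2 was not called, 5 of 11 receptors and coregulators were called higher and 5 lower (44.6% of all genes), among them Foxo1 (1.57), Rxra (0.98), Thra (-2.29), Ppara (1.24) and Ppard (-1.67). In cortex of the same mice 0 of 11 were called (7.21% of all genes), and the 4 with the smallest adjusted p were Rxra (0.27), Esrra (0.19), Thrb (-0.14) and Foxo1 (0.36).

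Genes of fatty acid use were set beside Ucp3 as well. Of 21 tested in muscle of mice 1-16, 10 were called higher and 1 lower, with a median of 0.21, beside 23.0% of all genes called. Pdk4, which restrains glucose oxidation, rose by 2.58 ± 0.227 (edgeR adjusted p = 1.99e-06), from 112, 213 and 330.4 CPM under AL to 776, 1386 and 1719 CPM under IF. Angptl4 rose by 2.80 ± 0.381 (edgeR adjusted p = 0.000138), Cpt1a by 1.06 ± 0.108 (5.83e-07) and Acot2 by 1.03 ± 0.116 (1.91e-06). Cpt1b, the muscle form of the carnitine transferase, changed by 0.20 ± 0.298 (edgeR adjusted p = 0.675). The rise of Ucp3 was smaller than those of Pdk4 and Angptl4 and larger than those of Cpt1a and Acot2.

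None of the 21 was called in muscle of mice 25-40, where edgeR called 0.00653% of all genes. The interaction (14.2% of all genes called) passed for some of the 21 and not for most. It was -3.08 for Pdk4 (edgeR adjusted p = 0.00372), -3.38 for Angptl4 (0.00117) and -1.20 for Cpt1a (0.000804). For Cpt1b it did not pass (-0.18, edgeR adjusted p = 0.833). Of the receptors and coregulators, Ppargc1a (-0.70, edgeR adjusted p = 0.00232) and Pparg (-1.49, 0.00681) passed. Thra (0.76), Rxra (0.55), Esrra (0.66) and Ppard (0.55) passed in the other direction, and the rest did not pass. For Slc25a27 and Slc25a30 the interaction did not pass (edgeR adjusted p = 0.0613 and 0.362). Pdk4 varied widely in muscle of AL mice 25-40, with 15.8, 207 and 915 CPM, as Ucp3 did. Of the markers of fat cells tested there, 5 of 7 white adipocyte markers passed the same interaction (Adipoq, Retn, Cidec, Fabp4 and Cfd, from -3.22 to -1.95), and Plin1 (-2.40) and Lep (0.92) did not. Of 4 brown adipocyte markers Cidea (-5.23) passed. Their part in the difference of Ucp3 was not tested.

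In liver of mice 1-16, where the median of Ucp3 was 0, 13 of 19 genes of fatty acid use were called higher and 1 lower, with a median of 1.07, beside 44.6% of all genes called. Hadha rose there by 1.19, Hadhb by 1.31, Cpt1a by 1.17, Pdk4 by 1.75 and Angptl4 by 2.83. In cortex 2 of 20 were called higher, Angptl4 (0.97) and Cpt1a (0.34), and 1 lower, Cd36 (-1.55), beside 7.21% of all genes called.

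Mitochondrial antioxidant genes bear on the oxidant role ascribed to Ucp2. In muscle of mice 1-16, where Ucp2 rose, 0 of 8 were called higher and 2 lower, Prdx5 (-0.25) and Gsr (-0.17), beside 23.0% of all genes. In liver, where Ucp2 was not called, 4 of 8 were called higher, among them Gpx4 (1.03), Txnrd2 (0.57) and Prdx5 (0.52), beside 44.6% of all genes. In cortex 0 of 8 were called (7.21% of all genes), with Sod2 (0.12; edgeR adjusted p = 0.108) first.

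The neighbours of Ucp2 and Ucp3 were read in the same fits. Within 250 kilobases on either side 10 further genes had a mean of at least 1 CPM in some tissue. In muscle of mice 1-16, 2 of the 9 tested were called higher and 0 lower, with a median of 0.07, beside 23.0% of all genes called. C2cd3, upstream of Ucp3, rose by 0.62 ± 0.0955 (edgeR adjusted p = 7.05e-05). Gm10603 rose by 2.20 ± 0.260 (edgeR adjusted p = 3.20e-06), from 0.341, 0.659 and 0.994 CPM under AL to 1.19, 2.95 and 4.24 CPM under IF. In mice 25-40 it changed by 0.03 ± 0.393, a value near that of Ucp3 there.

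Gm10603 lies on the minus strand at 100095944 to 100124053 and shares 1857 bases with the span of Ucp3. It also overlaps the span of C2cd3, on the plus strand at 100021440 to 100119359. The strand setting of the counting is not stated in the sources used here. Reads of Gm10603 and those of Ucp3 or C2cd3 therefore cannot be told apart where the genes overlap, and the change of Gm10603 is no separate result. On the other side Dnajb13, on the minus strand, shares 305 bases with the end of Ucp2, at a mean of 0.1495 CPM in muscle, 0.535 in cortex and 0.971 in liver, against 21.003, 35.04 and 47.6 CPM of Ucp2.

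**Figure D4:**
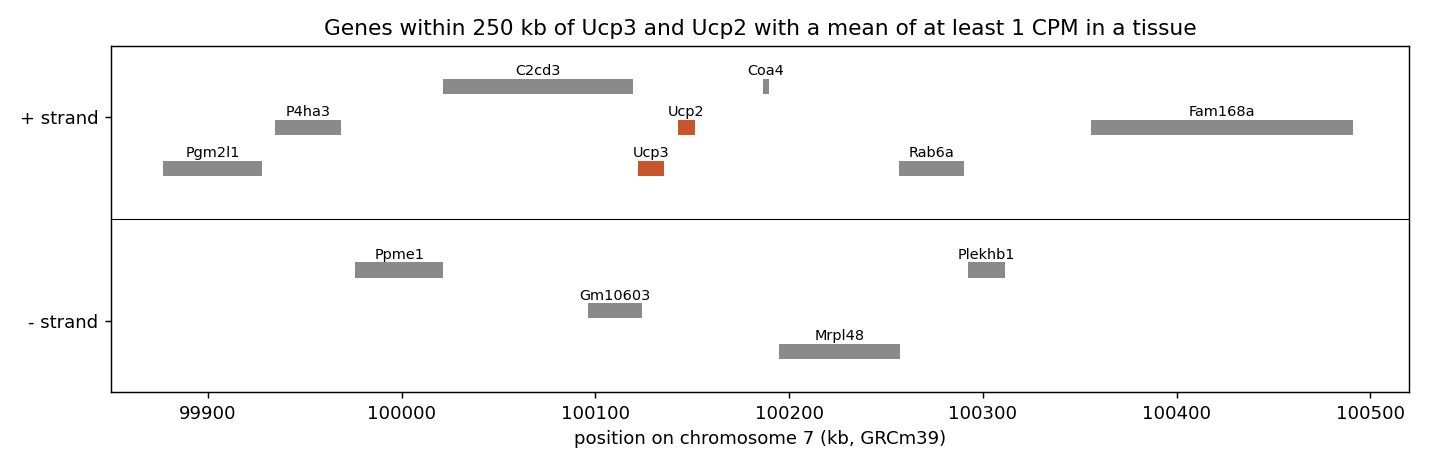
Genes within 250 kilobases of Ucp3 and Ucp2 with a mean of at least 1 CPM in a tissue, by position on chromosome 7 (kilobases, GRCm39) and strand. Ucp3 and Ucp2 lie side by side on the plus strand, 6904 bases apart, and Gm10603 on the minus strand shares 1857 bases with Ucp3.

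Since both members rose in the same muscles, the sequence before each RefSeq start was searched for 4 motifs on both strands. Both genes were found in the RefSeq promoter table (GRCm38.p6), and their first 220 bases, from 250 bases before the start on, were searched. AGGTCA, the core site of nuclear receptors, occurred 2 times before Ucp3, at 149 and 44 bases before the start on the plus strand, and 0 times before Ucp2. At least 1 match on either strand is found in 12.5% of 32851 promoter windows of that length. CAGCTG, an E-box, occurred 1 time in each, at 40 bases before the start in Ucp3, where it overlaps the second AGGTCA and where 32 of the last 40 bases searched are exonic in GENCODE vM39, and at 225 bases in Ucp2 (11.4% of windows). GGGCGG occurred 1 time before Ucp2, on the minus strand, and 0 times before Ucp3 (28.5% of windows), and TATAAA in neither (9.95%). A match describes the letters only.

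The first 180 bases of each window are printed because they show how the 2 neighbours differ in these letters. Capitals mark AGGTCA. The Ucp3 stretch is chr7:100472741-100472920 and the Ucp2 stretch chr7:100493108-100493287 in GRCm38.p6, plus strand. By exact match in GRCm39 they begin at 100121948 and 100142315, and neither holds an exonic base of its own gene. The Ucp2 stretch lies before the start of Ucp2 in the count table but within the span of Ucp2 in GENCODE vM39, which reaches farther upstream. Exons of another gene, Gm72028, cover 142 of the 180 bases of that stretch.
Ucp3: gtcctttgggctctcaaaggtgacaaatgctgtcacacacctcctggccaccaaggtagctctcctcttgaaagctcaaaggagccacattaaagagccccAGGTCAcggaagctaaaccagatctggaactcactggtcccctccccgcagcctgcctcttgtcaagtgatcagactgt
Ucp2: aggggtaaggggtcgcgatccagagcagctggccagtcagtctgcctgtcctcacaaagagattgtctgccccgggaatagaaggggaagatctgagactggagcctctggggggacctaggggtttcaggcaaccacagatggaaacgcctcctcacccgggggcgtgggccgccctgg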

How the data were processed

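The levels and tests rest on the gene counts that the authors deposited, made with Hisat2 and featureCounts. Counts were not realigned. The tools were R 4.3.3 with edgeR 4.0.16, limma 3.58.1 and DESeq2 1.42.0, and Python 3.11.15 with numpy 2.4.6, pandas 2.3.3 and matplotlib 3.10.9.

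Genes were kept by filterByExpr (minimum count 10, minimum total 15), scaled by TMM and tested with edgeR's quasi-likelihood F test, two-sided, within each tissue and cohort. The interaction and the cohort difference came from 1 fit per tissue over both cohorts. A gene was called at a Benjamini-Hochberg adjusted p under 0.05. Permutation tests were exact and two-sided on log2 CPM with a prior count of 2. The CPM was plain in the order of tissues and scaled in the diet response between tissues, where plain CPM was an alternative. The floor was 3 counts per library, and the largest floor of a group of livers was used. Gene lengths of the table served only for levels per kilobase. Alternatives were RLE and library totals for scaling, DESeq2 for the test, other filters, an unadjusted threshold, 1 fit over 3 tissues, a replicate block, and each library left out in turn.

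Named beside Ucp2 and Ucp3 were a fixed set of family members, carriers, receptors and fatty acid genes, up to 4 genes per list and tissue with the smallest adjusted p, the neighbours within 250 kilobases and the 5 genes of highest correlation. The values of 1 gene of that set are not reported here. Of 124 genes on the lists 123 are in the table. The members and lists were chosen with earlier results of these data known. In pairs of libraries of the same group (336 pairs) the lowest chi-square per degree of freedom was 7.76, so none was a duplicate of another. Proteins of the study were not used here.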

Additional observations from a re-analysis of the deposited data

Results flagged for a closer look

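In 28 groups of 7 or 8 libraries, 8 held a library far from the others, where chance gives about 1 in 20 groups. For Ucp2 in liver these were IF mouse 16 with 72.0 CPM (2265 counts; the others 25.7 to 38.8), AL mouse 28 with 139 CPM (5594 counts; the others 33.7 to 65.5) and IF mouse 40 with 121 CPM (4228 counts; the others 42.5 to 73.4). For Ucp3 in liver it was IF mouse 15 with 0.9002 CPM (31 counts; the others 0 to 0.174).

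For Ucp1 in muscle they were IF mouse 12 with 51.8 CPM (2330 counts; the others 0.0256 to 12.6), AL mouse 29 with 7.30 CPM (220 counts; the others at most 0.0238), AL mouse 2 with 0.331 CPM (12 counts; the others 0) and IF mouse 40 with 0.136 CPM (6 counts; the others 0). In a group whose other libraries are all at 0 a few counts are enough to stand apart.

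Of the tested differences in the response of Ucp2 or Ucp3 to diet between cohorts or tissues, 2 passed. The response of Ucp3 in muscle to IF was lower in mice 25-40 than in mice 1-16 by an interaction of -2.07, and in mice 1-16 it was larger in muscle than in cortex by 2.17.

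In a library outside the comparisons, the cortex of AL mouse 1, Xist stood at 213 CPM (10219 counts), against 0 to 0.612 CPM in the other libraries labelled male.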

How the results depend on the processing

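Of 245 values of 58 results under other choices, 209 were kept and 36 were not, 20 of them numbers of genes called. Kept means the same direction and side of the threshold or, for the 6 numbers of genes called, within 1.5 times the main number. Ucp3 in muscle of mice 1-16 passed under all 10 alternatives (2.15 to 2.43) and without each library in turn (2.08 to 2.24). Ucp2 there passed under all 10 (0.79 to 0.94) and without each library (0.72 to 0.89). The interaction of Ucp3 in muscle passed under all 5 (-2.23 to -2.02). Leaving out the libraries with Ucp1 was chosen after seeing the data and gave the 2.43, the 0.94 and the -2.23. It kept the IF mice of mice 1-16 with the highest Ucp3, so its pass for Ucp3 adds no support. For the 2 diet changes, an unadjusted threshold reuses the main fit and could not fail.

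The call of Ucp2 in cortex of mice 1-16 was lost with AL mouse 1 included (0.62), with no filter (0.65, adjusted p 0.0960), in 1 fit over 3 tissues (0.64, 0.112) and with a replicate block (0.70, 0.0863). Its adjusted p over those 4 ran from 0.0669 to 0.112. Without each library in turn it ran from 0.55 to 0.77 (adjusted p 0.0175 to 0.0822) and passed in 4 of 15 fits, those without AL mouse 4 or IF mice 9, 10 or 12. In mice 25-40 it passed at an unadjusted p under 0.05 (0.31), and ran from 0.18 to 0.38 without each library.

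The replicate block also turned Ucp3 in cortex of mice 1-16 to 0.0124. Paired by mouse number, Ucp2 in muscle against cortex of AL mice 25-40 no longer passed (-0.69, adjusted p 0.0597). AL and IF mice are different animals. Their equal replicate numbers gave correlations over 0.1 in 1 of 8 and 1 of 8 pairs in liver, 1 of 8 and 4 of 8 in muscle, and 1 of 7 and 2 of 8 in cortex. In muscle of mice 25-40 these correlations ran from -0.261 to 0.455. They were set against no null, so whether mice of equal number share anything was not tested.

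TMM over all tissues turned Ucp2 in muscle against cortex to 0.16 and 0.18 and brought liver against cortex of mice 1-16 past the threshold (0.86). Without a filter the cohort difference of Ucp3 in cortex no longer passed (0.37, adjusted p 0.115). Library totals turned Ucp3 in muscle of mice 25-40 to -0.0207. Linear CPM turned the correlation in cortex of IF mice 1-16 from 0.01 to -0.0228. Plain CPM brought Ucp3 in liver against muscle of mice 1-16 past the threshold (-1.94, adjusted p 0.0466), where an edgeR interaction gave -0.85, and turned it in mice 25-40 to 0.0455, as an edgeR interaction did (0.27), but these 2 comparisons rest on livers with mostly 0 counts of Ucp3 and are void.

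Without each library in turn Ucp2 ran from 0.06 to 0.36 in liver of mice 1-16, from -0.0635 to 0.41 in liver of mice 25-40 (negative without IF mouse 40), and from -0.23 to 0.0772 in muscle of mice 25-40 (positive without AL mouse 28 or 30). Ucp3 ran from -0.0682 to 0.21 in muscle of mice 25-40 (negative without AL mouse 26 or 27 or IF mouse 37 or 38), from -0.13 to 0.0280 in cortex of mice 1-16 (not negative without AL mouse 7 or IF mouse 9 or 15) and from -0.15 to -0.05 in cortex of mice 25-40.

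The number of genes called moved more. In cortex of mice 1-16 (1332) it was 498 without AL mouse 2 and IF mouse 10, 2140 by DESeq2, 294 with AL mouse 1, 119 in 1 fit over 3 tissues, 382 with a replicate block and 4400 at an unadjusted p. In cortex of mice 25-40 (2) it was 60 by DESeq2, 5 in 1 fit, 2069 at an unadjusted p and 0 by edgeR with library totals or a replicate block. In liver of mice 25-40 (0) it was 8 by DESeq2, 283 in 1 fit and 919 at an unadjusted p. In muscle of mice 1-16 (3463) it was 2195 in 1 fit and 5309 at an unadjusted p. In muscle of mice 25-40 (1) it was 83 by DESeq2, 5 with no filter, 4 in 1 fit and 1644 at an unadjusted p. The cause was not tested.

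Ucp3 in liver did not pass the filter, so no change is given for it. Its levels there rest on 0 to 31 counts per library, and in cortex on 69 to 168. RNA of whole tissue was counted, and neither protein nor transport activity was measured. Each cohort is 1 sex and 1 set of animals, so a difference between cohorts cannot be laid to sex. Lengths of the table join all transcripts of a gene, which affects levels per kilobase only.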
